A study of Mus musculus with 5 samples.

Results

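The 32 genes described here encode the enzymes and regulators by which a mouse cell makes cholesterol and fatty acids. They were chosen by name and role, with earlier results of these data known. All 32 were found among the 21835 genes of the expression table and passed the filter on low values. The cells were murine lung cancer-associated fibroblasts (CAFs), the fibroblasts that accompany a tumor. CAF-vec (2 samples, labelled as the wild-type control) carried the lentiviral vector alone per the study's methods, and CAF-200 (3 samples, labelled miR-200 overexpression) carried a lentivirus that expresses miR-200a, miR-200b and miR-429. Both were grown in alpha-MEM with fetal bovine serum, and per the labels the infected cells were kept under G418 for more than 2 weeks before total RNA was taken. The labels name the vector pLVX-Neo and the study's methods name pLVX-Hyg, so that the vector and drug are uncertain. The age, sex and strain of the donor mice were not given in the sources used here. Each group was a transduced population, drug-selected per the labels, nothing in the labels says that its samples came from separate cultures, and *p* values therefore measure only the spread between these samples, which may be technical. The study's methods describe RNA taken in triplicate from each group, and 2 CAF-vec samples were analysed here. The comparison between CAF-vec and CAF-200 asks which transcripts differ in CAFs when the miR-200 cluster is overexpressed.

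Cholesterol and fatty acids are both built from cytosolic acetyl-CoA. The mevalonate steps turn acetyl-CoA into farnesyl diphosphate, from which the sterol steps make squalene, lanosterol and finally cholesterol, while acetyl-CoA carboxylase and fatty acid synthase make palmitate that elongases and desaturases then modify. The SREBP transcription factors, held in the endoplasmic reticulum by INSIG proteins and released for cleavage with their escort SCAP when sterols run low, drive transcription of most of these enzymes. SREBP-2 acts mainly on the cholesterol genes and SREBP-1c mainly on the fatty acid genes.

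The mature miRNAs that define the CAF-200 group are shown here because their seeds, the bases that pair with target transcripts, were searched for in the members. Sequences are from RefSeq (GRCm38.p6), written 5′ to 3′ with the seed, bases 2 to 8, in capitals. All 3 lie on the minus strand of chromosome 4. mmu-miR-200b-3p and mmu-miR-429-3p share a seed, and mmu-miR-200a-3p has its own.
mmu-miR-200a-3p: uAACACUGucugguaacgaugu
mmu-miR-200b-3p: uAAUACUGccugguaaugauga
mmu-miR-429-3p: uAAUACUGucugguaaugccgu
The libraries held mRNA, so the level of these miRNAs was not measured in them. *Zeb1*, an established target of miR-200, was at 43.5 and 50.7 CPM (reads scaled to the library total) in CAF-vec against 37.8, 37.5 and 34.1 CPM in CAF-200 (log2 fold-change -0.36, limma adjusted *p* = 0.0504), and *Zeb2* at 46.2 and 29.8 CPM against 31.1 to 31.9 CPM (-0.23, adjusted *p* = 0.374). For *Zeb1* the CAF-200 samples were all the lower, and for *Zeb2* they lay between the CAF-vec samples.

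Expression was deposited as CPM, a count relative to the library total, and the depth of the libraries is unknown. Every gene listed at 0 in 1 CAF-200 sample was at 0 in all 3. The values carry the name TMM, a normalization across samples, and each sample summed to between 999956 and 1000111 CPM. Any further adjustment was not described in the sources used here. If adjustment narrowed the spread within CAF-200, every SE and adjusted *p* is too small, which was not tested. The 8 fibroblast markers examined were all expressed, 7 of 7 epithelial markers were below 0.5 CPM in every sample, as were 3 of 4 endothelial and 4 of 5 adipocyte markers, and the leukocyte marker *Ptprc* was at or near 0. The 5 leukocyte markers summed to 13.43 to 15.04 CPM in CAF-vec, against 15.62 to 16.55 CPM in CAF-200, and the 5 adipocyte markers, almost all of it *Fabp4*, to 85.1 to 94.4 and 99.7 to 126.0 CPM. The summed fibroblast markers ran from 7571 to 14230 CPM in CAF-vec, against 7168 to 7885 CPM in CAF-200, with CAF-vec replicate 1 standing apart. This sum is mostly *Col1a1*, *Col1a2* and *Vim*, while *Acta2* (log2 fold-change 2.63, limma adjusted *p* = 0.00123) and *Thy1* (1.46, adjusted *p* = 0.0029) rose. For *Acta2* this is the opposite of the study, which reports less α-SMA, its protein, by staining. The study also reports lower mRNA of most CAF markers by RT-qPCR. The sum of the 6 cycling markers was 671 to 747 CPM in CAF-vec, against 1165 to 1228 CPM in CAF-200, and 3 of them, *Mcm2*, *Mcm5* and *Pcna*, were higher at an adjusted *p* below 0.01, while *Ccnb1* overlapped between groups (0.13, adjusted *p* = 0.462). *Lyz2*, a myeloid gene, was at 1.11 and 1.99 CPM in CAF-vec against 6.48 to 7.48 CPM in CAF-200 (adjusted *p* = 0.00395), while the leukocyte genes *Cd68*, *Cd14* and *Csf1r* had log2 fold-changes of -0.14, -0.44 and -0.46 with adjusted *p* values of 0.159 to 0.758. The part of these differences in the results on the lipid genes was not tested. In bulk samples, fewer cells of a kind cannot be told apart from less RNA per cell.

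The members that fell in CAF-200 were a regulator and enzymes of cholesterol synthesis. *Insig1*, which retains SREBP in the endoplasmic reticulum, and *Lss*, the enzyme that closes the sterol ring, were 2.44-fold and 2.47-fold lower. *Fdps*, which makes farnesyl diphosphate, and *Mvk*, mevalonate kinase, were 1.85-fold and 1.57-fold lower. No member rose at an adjusted *p* below 0.01. None of the 8 genes that make and modify fatty acids passed that threshold, where 5.57% of all genes fell, and the difference between the branches was not tested. Thus 4 of 32 members fell and 0 rose at an adjusted *p* below 0.01 (limma on log2(CPM + 0.5), Benjamini-Hochberg over 12175 genes), where 5.57% of all genes fell and 4.45% rose. At an unadjusted *p* below 0.05, 15 members were lower and 1 was higher, against 27.6% and 17.3% of all genes. *Insig1* and *Lss* were the 2 members that also passed a log2 fold-change beyond 1, against 2.35% of all genes lower and 2.37% higher. Relaxing the adjusted *p* to 0.05 gave 13 members lower (40.6%), against 18.6% of all genes, and 0 higher, against 11.9%.

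Directions and overlaps between groups were also counted without a threshold. Of the 32 members, 25 had a negative log2 fold-change (78.1%), against 58.3% of all genes, and 7 a positive one, against 41.7%. In 19 members the CAF-200 samples all lay below both CAF-vec samples (59.4%), against 37.3% of all genes, and in 3 they all lay above (9.38%), against 24.3%. The median log2 fold-change of the members was -0.35, with all genes tested at -0.094. Centring each sample on its median, which brought the median of all genes to 0.0027, left the median of the members at -0.25.

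The counts varied with the libraries in the fit, for the members and for the whole table alike. At an adjusted *p* below 0.01, 0 members were lower without any 1 of the CAF-200 samples, where 0 genes of the whole table were lower and 0, 1 and 0 higher, so that with 2 samples in each group the count says nothing of the members. *Insig1* then had an adjusted *p* of 0.0203 to 0.0258. Without CAF-vec replicate 1 the count was 13, with 16.6% of all genes lower, and without CAF-vec replicate 2 it was 18, with 31.3% lower. At an adjusted *p* below 0.05 it was 5, 5 and 3 without CAF-200 replicates 1, 2 and 3, with 5.98%, 4.79% and 4.0% of all genes lower, and 16 and 18 without CAF-vec replicates 1 and 2, with 26.8% and 39.6% lower. The log2 fold-change of *Insig1* stayed between -1.33 and -1.18 and that of *Lss* between -1.38 and -1.19 under all alternatives tried.

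**Figure D1:**
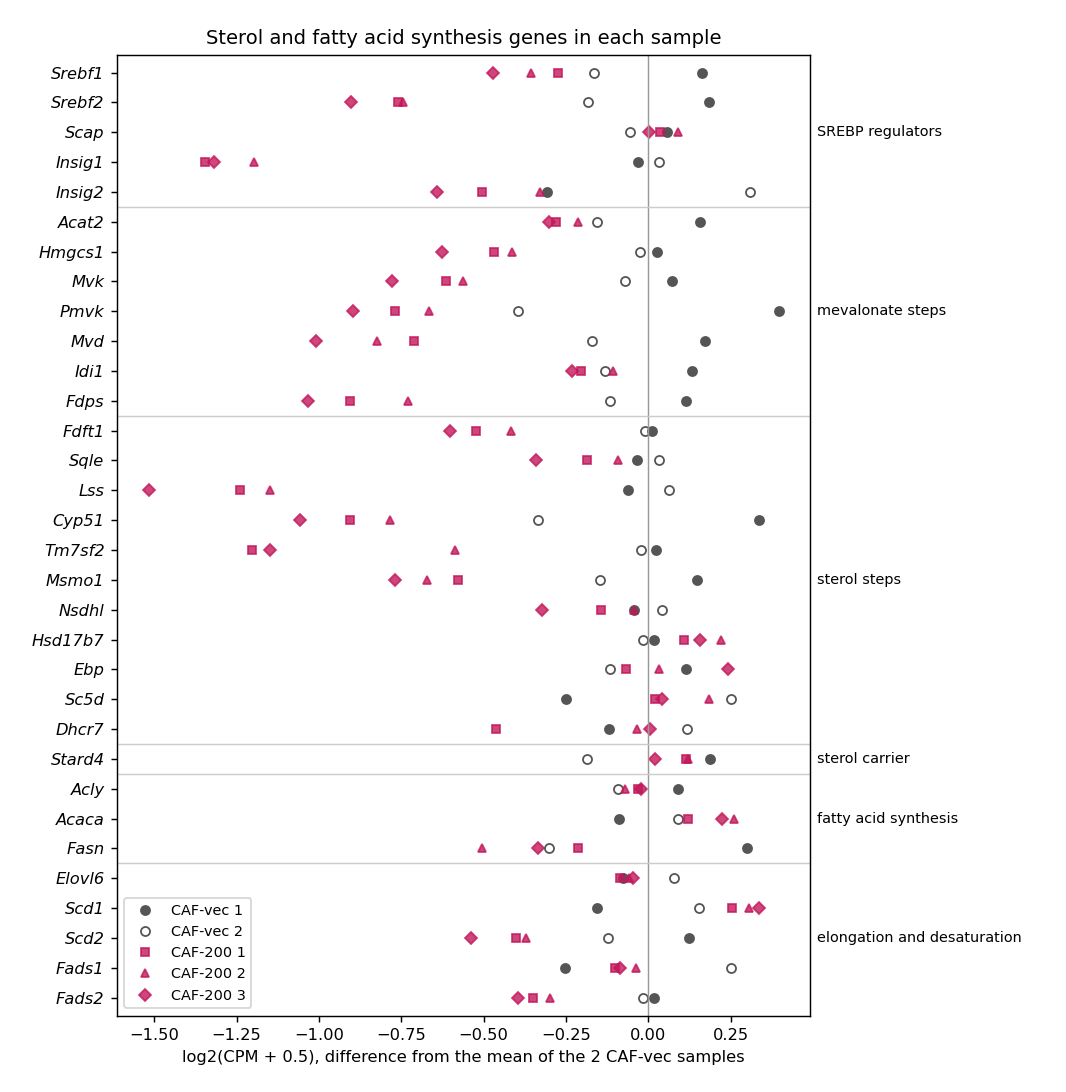
Each of the 32 members in each of the 5 samples, as log2(CPM + 0.5) minus the mean of the 2 CAF-vec samples for that gene, with circles for CAF-vec and filled squares, triangles and diamonds for CAF-200 replicates 1, 2 and 3, in pathway order. The CAF-200 symbols lie left of both circles in 19 members and right of both in 3, and in *Insig1* and *Lss* all 3 lie beyond -1.

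Negative log2 fold-changes were found in 4 of the 5 SREBP regulators and a positive one in 1, where 58.3% of all genes were negative. The CAF-200 samples all lay below both CAF-vec samples in 4 and overlapped in 1, where 37.3% of all genes were lower without overlap. Only *Insig1* passed the adjusted *p* threshold used above, against 5.57% of all genes lower, and differences between the regulators were not tested. *Insig1* (ENSMUSG00000045294, chromosome 5, 28071363 to 28078662, plus strand, GRCm38) was at 104.7 and 109.4 CPM in CAF-vec and at 41.8, 46.4 and 42.6 CPM in CAF-200. The groups were far apart and the samples within each were close, and the log2 fold-change was -1.29 (SE 0.0888, adjusted *p* = 0.00194), rank 197 among 12175 genes from the most negative. *Insig2*, the paralogue that also retains SCAP and SREBP, was at 75.1 and 115.3 CPM in CAF-vec and 65.5, 74.0 and 59.4 CPM in CAF-200 (log2 fold-change -0.49, SE 0.201, adjusted *p* = 0.114). Every CAF-200 sample was below each CAF-vec sample, but the CAF-vec samples differed from each other by more than the groups did.

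*Srebf2*, which encodes SREBP-2 (ENSMUSG00000022463, chromosome 15, 82147181 to 82205379, plus strand), was at 112.5 and 87.1 CPM in CAF-vec and 58.3, 58.8 and 52.7 CPM in CAF-200. No CAF-200 sample reached the lower CAF-vec value, and the log2 fold-change of -0.80 (SE 0.133, adjusted *p* = 0.0106) lay just outside the threshold, with *Mvk* (adjusted *p* = 0.00961) just inside it. *Srebf1*, which encodes SREBP-1a and SREBP-1c, was at 79.8 and 63.5 CPM in CAF-vec and 58.8, 55.5 and 51.2 CPM in CAF-200 (log2 fold-change -0.37, SE 0.129, adjusted *p* = 0.0791). These values were also all lower in CAF-200, with a small gap between the groups, and the log2 fold-change was -0.20 without CAF-vec replicate 1 (adjusted *p* = 0.0926) and -0.53 without replicate 2 (0.00119). *Scap*, the escort protein, was at 64.8 and 59.8 CPM in CAF-vec and 63.8, 66.3 and 62.3 CPM in CAF-200, and the groups overlapped (log2 fold-change 0.042, 95% interval -0.17 to 0.25, adjusted *p* = 0.723). Exons of *Srebf1* overlap those of *Rai1* on the opposite strand, and exons of *Scap* those of *5830462I19Rik*. The libraries were stranded but the strand setting of the counting was not given in the sources used here.

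All 7 genes of the mevalonate steps had a negative log2 fold-change, from -0.89 to -0.18 with a median of -0.65. Of all genes, 58.3% had a negative value. An adjusted *p* of 0.01 was passed by 2 of the 7, against 5.57% of all genes lower, and 0.05 by 4, against 18.6%. *Fdps* (ENSMUSG00000059743, chromosome 3, 89093588 to 89101959, minus strand) was at 123.0 and 104.6 CPM in CAF-vec and 60.3, 68.2 and 55.2 CPM in CAF-200. The groups were clearly separated, with a log2 fold-change of -0.89 (SE 0.128, adjusted *p* = 0.00771). Exons of *Fdps* overlap the annotated gene *Gm43738* on the same strand, and reads of that overlap may be divided between them. *Mvk* (ENSMUSG00000041939, chromosome 5, 114444269 to 114460591, plus strand) was at 67.3 and 61.0 CPM in CAF-vec and 41.7, 43.2 and 37.2 CPM in CAF-200 (log2 fold-change -0.65, SE 0.105), again without overlap. The call of *Mvk* was lost with no filter on low values (adjusted *p* = 0.0144), with quantile normalization (0.0110), with centring on sample medians (0.0117) and with no variance trend (0.0124), and that of *Fdps* with no filter (0.0129). Both were also lost without any 1 of the CAF-200 samples, where no gene of the table was called lower (*Mvk* 0.0472 to 0.0554, *Fdps* 0.0326 to 0.0479).

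The remaining mevalonate genes followed at an adjusted *p* above 0.01. *Mvd*, which decarboxylates mevalonate diphosphate to isopentenyl diphosphate, was at 27.7 and 21.7 CPM in CAF-vec and 14.8, 13.6 and 11.9 CPM in CAF-200 (log2 fold-change -0.85, SE 0.148, adjusted *p* = 0.0121). *Hmgcs1*, the HMG-CoA synthase of the cytosol, was at 77.4 and 74.8 CPM in CAF-vec and 54.8, 56.9 and 49.2 CPM in CAF-200 (-0.50, SE 0.0972, adjusted *p* = 0.0157). In both genes every CAF-200 sample was below every CAF-vec sample. Exons of *Hmgcs1*, and of *Idi1* and *Elovl6* below, overlap annotated genes on the opposite strand (*Gm48342*, *Gm48574* and *Gm35986*). *Pmvk*, phosphomevalonate kinase, differed by -0.78 on the log2 scale (adjusted *p* = 0.0558), and its CAF-vec samples, at 28.1 and 16.0 CPM, lay farther apart than the groups. *Idi1*, the isomerase, overlapped between groups, and *Acat2*, the acetyl-CoA acetyltransferase of the first step, did not (log2 fold-change -0.26, adjusted *p* = 0.135). *Acat2* has a near-identical neighbour, *Acat3*, at 0.696 to 1.96 CPM, and reads may be shared between them.

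**Figure D2:**
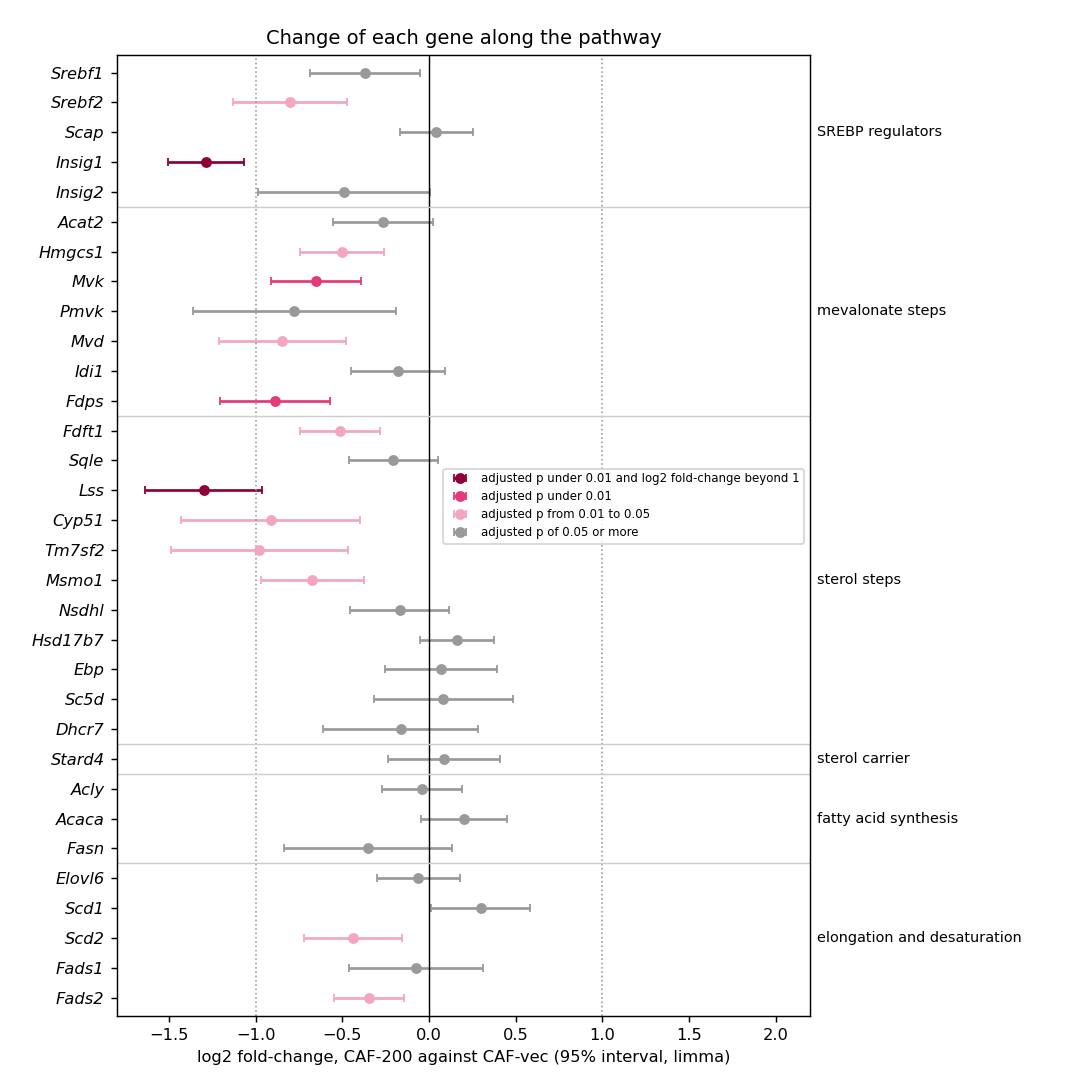
Log2 fold-change of each member (CAF-200 against CAF-vec, n = 3 and n = 2) with its 95% interval from limma, in pathway order and colored by adjusted *p*. Genes from *Hmgcs1* to *Msmo1* lie mostly to the left of 0, with *Insig1* and *Lss* beyond -1, while the later sterol steps from *Nsdhl* onward and the fatty acid genes lie between -0.44 and 0.30.

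Of the 11 sterol genes, 8 had a negative and 3 a positive log2 fold-change, with a median of -0.21, where 58.3% of all genes were negative. At an adjusted *p* of 0.01, 1 was lower, against 5.57% of all genes, and at 0.05, 5 were, against 18.6%. *Lss*, lanosterol synthase (ENSMUSG00000033105, chromosome 10, 76531588 to 76557138, plus strand), was at 24.1 and 26.4 CPM in CAF-vec and 10.4, 11.1 and 8.49 CPM in CAF-200. It had the most negative log2 fold-change of the 32 members, -1.30 (SE 0.137, adjusted *p* = 0.00377), rank 186 of all genes, with no overlap between groups. The order depended on the setting: with a pseudocount of 1 CPM *Insig1* was at -1.28 and *Lss* at -1.26. The annotated antisense gene *4930483K19Rik* overlaps its exons on the opposite strand. *Tm7sf2*, a sterol C14 reductase, was at 10.1 and 9.80 CPM in CAF-vec and 4.05, 6.46 and 4.22 CPM in CAF-200 (log2 fold-change -0.98, SE 0.207, adjusted *p* = 0.0197). Its exons overlap those of *Vps51* on the same strand, so that its level is uncertain.

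*Msmo1*, a C4-methylsterol oxidase, was at 97.5 and 79.5 CPM in CAF-vec and 58.8, 55.0 and 51.4 CPM in CAF-200 (log2 fold-change -0.67, SE 0.121, adjusted *p* = 0.0131). *Fdft1*, squalene synthase and the first enzyme committed to sterols, was at 31.2 and 30.7 CPM in CAF-vec and 21.4, 23.1 and 20.2 CPM in CAF-200 (-0.51, SE 0.0939, adjusted *p* = 0.0136). Both genes separated the groups fully and missed the threshold of 0.01. *Cyp51*, the lanosterol demethylase, had a log2 fold-change of -0.92 with an adjusted *p* of 0.0250, and CAF-vec replicate 1 (87.5 CPM) was well above replicate 2 (54.8 CPM). *Fdft1* and *Cyp51* each overlap a gene on the opposite strand, *Ctsb* and *Akap9*. The other 6 sterol genes, *Sqle*, *Nsdhl*, *Hsd17b7*, *Ebp*, *Sc5d* and *Dhcr7*, had log2 fold-changes from -0.21 to 0.16 and adjusted *p* values from 0.178 to 0.719. The sterol carrier *Stard4*, which moves cholesterol between membranes, was at 0.085 (adjusted *p* = 0.637).

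**Figure D3:**
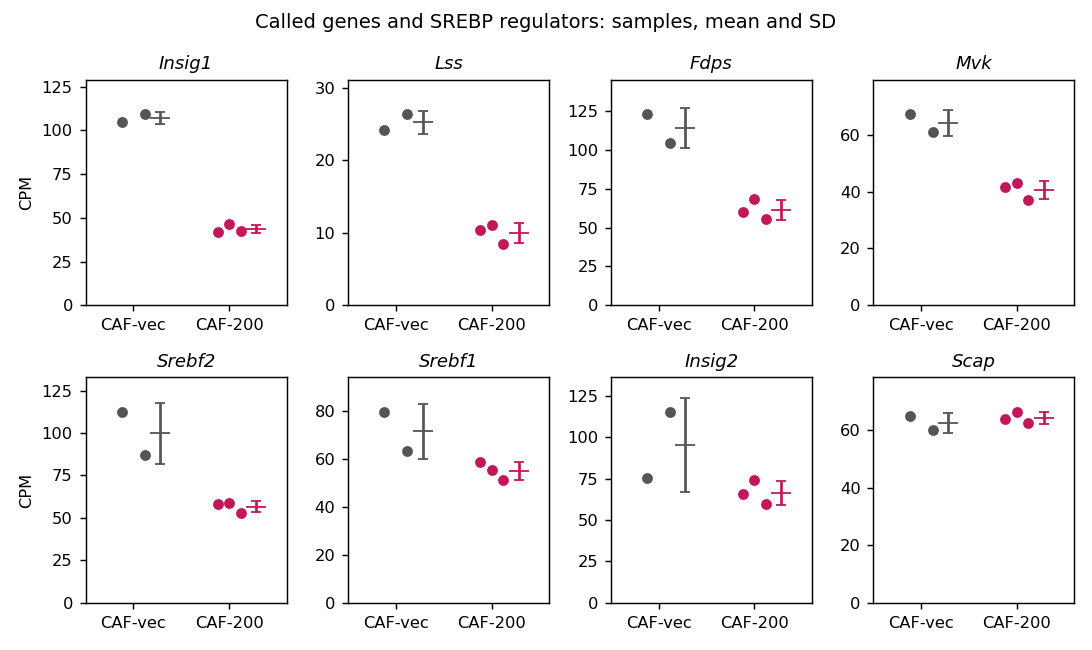
CPM in every sample (points) with the group mean and SD (bars) for the 4 members below an adjusted *p* of 0.01 and the other 4 SREBP regulators, each axis starting at 0. The CAF-200 samples lie below both CAF-vec samples in every panel except *Scap*.

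The 8 genes of fatty acid synthesis, elongation and desaturation had a median log2 fold-change of -0.069, against -0.51 for the 18 genes of the mevalonate and sterol steps and -0.094 for all genes. None of the 8 passed an adjusted *p* of 0.01, and 2 were lower at 0.05 (25.0%), near the 18.6% of all genes. Of the 18 cholesterol genes 9 were lower at 0.05, and the difference between the branches was not tested. The 2 lower fatty acid genes, *Scd2* and *Fads2*, were above 0.05 under centring on sample medians (adjusted *p* = 0.0507 and 0.0671), and *Fads2* also under quantile normalization (0.0768). *Acly*, which supplies cytosolic acetyl-CoA to both branches, had a log2 fold-change of -0.041 (95% interval -0.27 to 0.19), and the elongase *Elovl6* and the desaturase *Fads1* were at -0.063 and -0.074. The sign of these 3 values turned positive under quantile normalization and under centring on sample medians. *Acaca*, acetyl-CoA carboxylase, was at 0.20 (95% interval -0.044 to 0.45, adjusted *p* = 0.169). *Fasn*, fatty acid synthase, was at 156.5 and 103.0 CPM in CAF-vec against 89.3 to 109.4 CPM in CAF-200, so that the groups overlapped (log2 fold-change -0.35, 95% interval -0.84 to 0.13, adjusted *p* = 0.214). This value rested on the CAF-vec sample used: it was -0.050 without CAF-vec replicate 1 (adjusted *p* = 0.722) and -0.65 without replicate 2 (0.0011). *Fads2*, a desaturase of polyunsaturated fatty acids, differed by -0.35 on the log2 scale (adjusted *p* = 0.0264).

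The stearoyl-CoA desaturases, which place the double bond in oleate and palmitoleate, had opposite signs. *Scd1* was at 66.7 and 82.8 CPM in CAF-vec and 88.8, 92.0 and 94.0 CPM in CAF-200 (log2 fold-change 0.30, 95% interval 0.014 to 0.58, adjusted *p* = 0.0997). *Scd2* was at 191.4 and 161.2 CPM in CAF-vec and 132.8, 135.6 and 120.7 CPM in CAF-200 (-0.44, 95% interval -0.72 to -0.16, adjusted *p* = 0.0359). Neither gene overlapped between groups. In *Scd1* the CAF-vec samples differed by 0.31 on the log2 scale, more than the groups did. Its log2 fold-change was 0.14 without CAF-vec replicate 1 (limma adjusted *p* = 0.114) and 0.45 without replicate 2 (0.000707).

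Ratios within a sample were compared for 3 pairs of paralogues, chosen after their values were seen. Since the transcripts differ in length, only the difference of a log2 ratio (of CPM + 0.5) between samples is read. The log2 ratio of *Scd1* to *Scd2* was -1.51 and -0.96 in CAF-vec and -0.58, -0.56 and -0.36 in CAF-200, a difference of 0.74. That of *Srebf2* to *Srebf1* was 0.49 and 0.45 in CAF-vec and -0.012, 0.083 and 0.043 in CAF-200, a difference of -0.43, and that of *Insig1* to *Insig2* was 0.48 and -0.076 against -0.64, -0.67 and -0.48, a difference of -0.79. The groups did not overlap in any of the 3 ratios. The exact two-sided permutation test gave *p* = 0.1 for each, the smallest value that the 10 arrangements of 2 and 3 samples allow, and 0.1 after Benjamini-Hochberg adjustment over the 3 pairs. As no lower value was possible and the pairs were chosen from seen values, the test cannot decide whether the ratios differ.

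**Figure D4:**
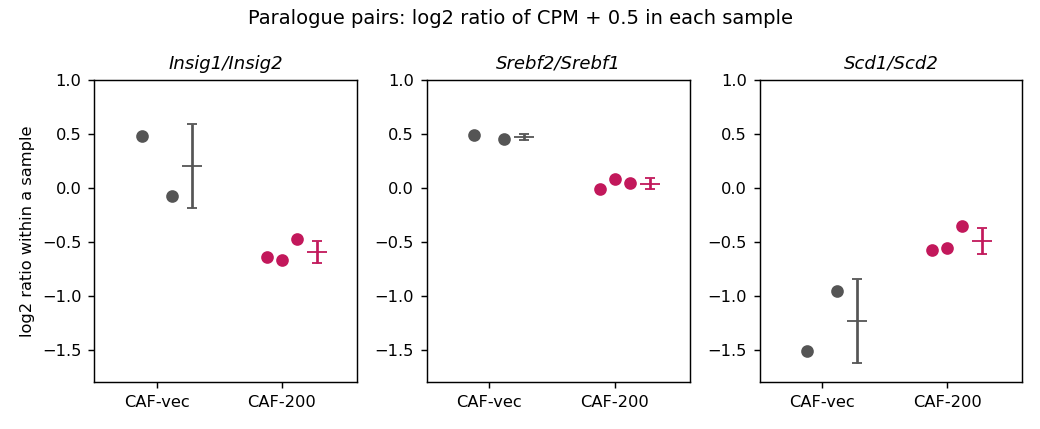
Log2 ratio of CPM + 0.5 within each sample for 3 pairs of paralogues, with points for samples and bars for the group mean and SD. *Srebf2* to *Srebf1* and *Insig1* to *Insig2* are lower in the 3 CAF-200 samples, and *Scd1* to *Scd2* is higher.

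The CAF-vec samples differed from each other in many of these genes. The gap between them on the log2 scale exceeded the group difference in 14 of 32 members, where 47.6% of all genes had such a gap, and CAF-vec replicate 1 was the higher in 21 of 32, where 55.4% of all genes were. In the mevalonate steps it was the higher in all 7. The median gap was 0.23 in the members and 0.28 in all genes. *Insig1* and *Lss* differed between the CAF-vec samples by -0.063 and -0.12 on the log2 scale, with the lower value in replicate 1, and *Tm7sf2*, *Hmgcs1* and *Fdft1* by 0.047, 0.050 and 0.021. These 5 genes were thus lower in CAF-200 by far more than the controls differed. *Pmvk* (0.79), *Cyp51* (0.67), *Insig2* (-0.62) and *Fasn* (0.60) had the widest gaps. Without CAF-vec replicate 1 and without replicate 2, the log2 fold-change was -0.38 and -1.17 for *Pmvk*, -0.58 and -1.25 for *Cyp51* and -0.80 and -0.18 for *Insig2*, and that of *Fads1* changed sign, from -0.33 to 0.18.

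**Figure D5:**
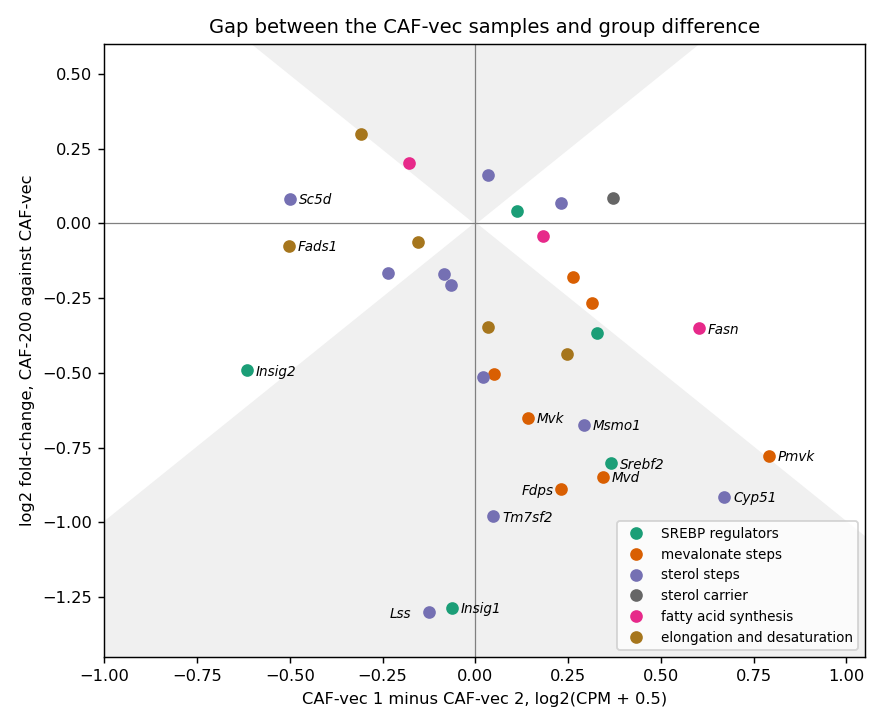
Difference between the CAF-vec samples (replicate 1 minus replicate 2, log2(CPM + 0.5)) against the log2 fold-change between groups, 1 point per member colored by role, with the area where the group difference is the larger shaded. *Insig1* and *Lss* are deep in the shaded area, and *Fasn*, *Insig2*, *Sc5d* and *Fads1* lie outside it.

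Beyond the 32 members, 49 further genes of lipid handling were listed by function and 44 were tested. Of these, 5 fell and 1 rose at an adjusted *p* below 0.01, where 5.57% of all genes fell and 4.45% rose. In the 27 tested genes of other synthesis steps and SREBP control, 1 fell, a share (3.7%) below that of all genes: *Lpin1*, a phosphatidate phosphatase of glycerolipid synthesis (log2 fold-change -0.89, adjusted *p* = 0.00556). In the 8 tested genes of uptake and sterol transport, 2 fell: *Npc1*, which releases cholesterol from lysosomes (-0.71, adjusted *p* = 0.00673), and *Osbp*, an oxysterol-binding protein (-0.61, adjusted *p* = 0.00597). *Npc1* was at 35.6 and 40.9 CPM in CAF-vec and at 22.6, 23.5 and 23.2 CPM in CAF-200, with no overlap between the groups.

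In the 9 tested genes of sterol export, esterification and oxysterols, 2 fell, against 5.57% of all genes, and 1 was called higher, against 4.45%. *Abca1*, the transporter that loads cholesterol onto apolipoprotein A-I, was at 25.6 and 23.0 CPM in CAF-vec and 9.58, 9.63 and 8.35 CPM in CAF-200 (log2 fold-change -1.36, SE 0.111, adjusted *p* = 0.00268). *Nr1h3*, which encodes the oxysterol receptor LXRα, was at 0.426 and 0.258 CPM in CAF-vec and 1.20, 1.23 and 1.54 CPM in CAF-200 (1.12, SE 0.174, adjusted *p* = 0.00891). The other receptor, *Nr1h2* or LXRβ, fell (-0.57, adjusted *p* = 0.00791). *Nr1h3* was below 0.5 CPM in both CAF-vec samples and passed the filter only through CAF-200, so that among tested genes it had to be higher there, and its call is no support for a change of the list. Its fold-change is also understated on this scale.

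Matches to the miR-200 seeds were searched for in the longest annotated 3′-UTR of each gene (GENCODE M21, GRCm38), as CAGTATT for miR-200b and miR-429 and as CAGTGTT for miR-200a, on the transcript strand. A match was found in 11 of 32 members (34.4%) and in 3650 of 12060 tested genes with a 3′-UTR (30.3%), a similar share. The match shared by miR-200b and miR-429 was in 5 members (15.6%, against 15.7%) and the miR-200a match in 7 (21.9%, against 20.9%). The 11 members with a match had a median log2 fold-change of -0.16 and the 21 without one of -0.37, against -0.066 and -0.11 in all genes. By seed, the 5 members with the match shared by miR-200b and miR-429 had a median of 0.16 and those without it of -0.37, against -0.045 and -0.10 in all genes. The 7 members with the miR-200a match had a median of -0.44 and those without it of -0.35, against -0.079 and -0.10 in all genes. *Scd2* is in both sets, and no difference between these small sets was tested. The 3′-UTRs of members also differed in length, with a median of 2411 bases with any match and 900 without. *Insig1*, *Fdps* and *Mvk* held no match in 3′-UTRs of 1842, 55 and 400 bases, so that *Fdps* offered little sequence to search.

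The matches below are those of the lower genes *Lss*, *Srebf2* and *Fdft1*, which have the miR-200a match, and the first match to miR-200b and miR-429 of *Scd1* and *Scd2*, which differ in sign. The miR-200a match was also in *Scd2*, *Elovl6* (3 matches, log2 fold-change -0.063), *Dhcr7* (2 matches, -0.16) and *Stard4* (0.085). The match to miR-200b and miR-429 was also in *Hsd17b7* (0.16), *Acaca* (0.20) and *Sqle* (-0.21). Each sequence is given on the transcript strand with the 7 matched bases in capitals. The positions of the capitals are chr10:76553214-76553220 for *Lss*, chr15:82205314-82205320 for *Srebf2*, chr14:63145832-63145838 for *Fdft1* (minus strand), chr19:44397791-44397797 for *Scd1* (minus strand) and chr19:44303325-44303331 for *Scd2*.
Lss miR-200a: gatagggtCAGTGTTggtgtctt
Srebf2 miR-200a: gtcttcatCAGTGTTgaaacatt
Fdft1 miR-200a: ctgaaaacCAGTGTTtgagcggt
Scd1 miR-200b and miR-429: ttccggtaCAGTATTcttataaa
Scd2 miR-200b and miR-429: ttctggtaCAGTATTgtaaaacg
The *Scd1* and *Scd2* matches start at bases 122 and 125 of their 3′-UTRs and each gene has 2 such matches, while their log2 fold-changes were 0.30 and -0.44. *Scd2* also has 2 matches to miR-200a. A match of 7 bases is a description of the sequence and was not measured as a site.

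Promoters from 250 bases before to 50 after the transcription start were available from RefSeq (GRCm38.p6) for 25 of the 32 members. Those of *Fads1*, *Fdft1*, *Fdps*, *Scd1*, *Scd2*, *Sqle* and *Stard4* were missing and were not searched. The sterol response motif TCACNCCAC, searched on both strands, was in 1 of 25 (4.0%), *Hmgcs1*, and in 129 of 9550 tested genes (1.35%). CCAAT, the motif of the NF-Y factor that acts with SREBP, was on either strand in 20 of 25 members (80.0%) and in 4174 of 9550 genes (43.7%). In *Hmgcs1* the motif, in capitals below, lies at chr13:119690214-119690222 on the plus strand, starting 137 bases before the transcription start.
Hmgcs1 promoter: tcaccgtcTCACCCCACttcccagg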

How the data were processed

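RNA of CAF-vec (n = 2) and CAF-200 (n = 3) was sequenced from stranded, paired-end mRNA libraries. The authors deposited CPM values per Ensembl gene under the name TMM. Per the labels the processing notes name FastQC, cutadapt, Trimmomatic, STAR, RSEM and edgeR with GRCm38/mm10. Versions and order were not given in the sources used here. Low values were not whole multiples of a common step (25.7% to 54.8% within 0.05 of a step), so reads could not be recovered and depth is unknown.

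The 12175 genes that reached 0.5 CPM in 2 or more samples were analysed as log2(CPM + 0.5) in limma 3.58.1 (R 4.3.3) with a variance trend and Benjamini-Hochberg adjustment. The study's thresholds, adjusted *p* below 0.01 and log2 fold-change beyond 1, were used, and the code was tested on simulated data. A difference of log2(CPM + 0.5) understates the change of genes with low values. Symbols matched 21795 of 21835 identifiers. Values in every sample are given for the 10 members with the lowest adjusted *p*, since only 4 passed 0.01, and for the 5 SREBP regulators. The members and lists were chosen with earlier results of these data known. Some genes of the further lists are not reported here. No set test was run. Alternatives changed the pseudocount, filter, normalization, variance trend, thresholds, replicate block and samples.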

Additional observations from a re-analysis of the deposited data

How the results depend on the processing

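Of 416 values of single members under alternative settings, 353 kept their direction and side of the threshold, 27 passed it only under the alternative, 21 lost it and 15 changed sign. Only the 4 called members could lose the threshold, and the losses were 8 for *Mvk*, 5 for *Fdps*, 4 for *Insig1* and 4 for *Lss*. The changes of sign concerned 7 genes with a log2 fold-change of at most 0.085 in size. With all samples, 4 members fell and 0 rose at an adjusted *p* below 0.01, 2 fell and 0 rose with the fold threshold as well, and 286 genes of the whole table fell and 289 rose. Without a filter 2 members fell. At an adjusted *p* of 0.05, 13 members fell, against 2265 genes of the whole table (18.6%). With the fold threshold as well, 2 members and 436 genes fell. With an adjusted *p* below 0.01 and a log2 fold-change of 0.5 as the limit, 4 members fell, with 677 genes lower and 541 higher. Centring on sample medians gave 228 genes lower and 365 higher, and the median of the members was -0.25, with -0.24 under quantile normalization.

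The replicate numbers are shared by 2 pairs, whose deviations correlated at 0.25 and 0.13, and CAF-vec replicate 2 correlated with CAF-200 replicate 3 at 0.12, so the numbers were taken as names. With a replicate block 0 members passed the adjusted *p* of 0.01 and 0 passed both thresholds, where 70 genes were lower and 101 higher. At an unadjusted *p* below 0.05, 12 members were lower, against 2480 of 12175 genes. At an adjusted *p* below 0.05, 5 members were lower with the block, and the share of all genes was not counted. *Insig1*, *Lss*, *Fdps* and *Mvk* then had an adjusted *p* of 0.0103, 0.0142, 0.0373 and 0.0617, and *Ebp* changed sign to -0.018. CAF-200 replicate 3 has no partner and drops out of this comparison, so that log2 fold-changes with the block equal those without that sample.

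Leaving out 1 sample gave 0 to 18 members lower and 0 to 1 higher, 0 to 7 lower with the fold threshold, 0 to 906 genes lower and 0 to 624 higher, and a median of the members from -0.39 to -0.30. The 0 members came without any 1 CAF-200 sample, where the whole table also had 0 lower genes. At an unadjusted *p* of 0.05, 13 to 15 members were then lower, against 2316 to 2549 of the 12114 to 12121 genes tested. Without a CAF-vec sample, the other is assumed to vary like CAF-200. Across these fits *Scap* ran from -0.015 to 0.099, *Ebp* from -0.047 to 0.18, *Sc5d* from -0.17 to 0.33, *Stard4* from -0.10 to 0.27, *Acly* from -0.13 to 0.050, *Elovl6* from -0.14 to 0.014 and *Fads1* from -0.33 to 0.18. Under quantile normalization *Acly*, *Elovl6* and *Fads1* were at 0.070, 0.0068 and 0.016, and under centring at 0.055, 0.033 and 0.022. The causes were not tested. Count models were not run, since whole reads were not recovered. With 2 and 3 samples and no depth, small differences between members could not be resolved.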
